A study of Mus musculus with 4 samples.

Results

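Chromatin loops whose contact count stood at 8 or more times the local expectation, with anchors no more than 1000 kb apart, were examined in mouse granulosa cells. They were chosen from the deposited loop lists by 2 values of each loop. The first is the observed contact count divided by the donut expectation, which is the count predicted from the ring of pixels around the loop in the contact map. The second is the distance between the midpoints of the 2 anchors, called the span. Of 30437 loops in 4 lists, 29480 spanned up to 1000 kb, and 2983 of these (10.1%) had a ratio of 8 or more. These 2983 are called high-enrichment loops below, and the remaining 26497 loops up to 1000 kb are called other loops.

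The lists come from Micro-C, a chromosome conformation capture method that cuts chromatin with micrococcal nuclease, on granulosa cells taken from punctured ovaries of 21-day-old mice. The hCG group (2 libraries, hCG 1 and hCG 2) had 5 IU of eCG per mouse and then 5 IU of human chorionic gonadotropin (hCG) for 6 h. The PMSG group (2 libraries, PMSG 1 and PMSG 2) had the same 5 IU of eCG, also called PMSG, is labelled 0 h after hCG, and has no hCG dose in its labels. For both groups the sample characteristics put the time on eCG at 46 h, while the treatment protocol puts it at 44 h. The strain and the number of mice behind each library are not given in the labels, which also do not say that the libraries came from separate mice, so every p-value measures the spread between these libraries only. Cells were collected by puncture, which can carry other ovarian cells along, and a loop list holds no expression by which the cell type could be checked.

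Loops of this kind form when cohesin, a ring-shaped complex, draws out chromatin until it is held at sites bound by CTCF, a DNA-binding protein, and some loops join promoters and enhancers. In granulosa cells eCG acts like follicle-stimulating hormone and drives follicle growth, while hCG acts like the surge of luteinizing hormone (LH) and sets off ovulation and luteinization. A high ratio says that a point in the map stands out sharply from its surroundings, and it can come from many contacts at the point or from few around it.

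The high-enrichment loops stood on a lower donut expectation than other loops. Their median observed count was 20 and 23 contacts in hCG 1 and hCG 2, and 23 and 20 in PMSG 1 and PMSG 2. Their median donut expectation was 2.08 and 2.43 contacts in the hCG libraries, and 2.49 and 2.07 in the PMSG libraries. Other loops had more contacts, with a median of 36 over the 4 lists, and stood on a median expectation of 9.85 contacts, but most of them were calls in coarser bins. In 5 kb bins alone the median count was 21 contacts in both sets, on a median expectation of 2.14 for high-enrichment loops and 3.68 for other loops. Within libraries these 5 kb medians were 20 for high-enrichment and 18 for other loops in hCG 1, and 23 and 21 in hCG 2. They were 23 and 25 contacts in PMSG 1, and 20 and 17 in PMSG 2. The ratio that split the sets contains the expectation, so its difference between them is a description. A count of 21, the median over all 4 lists, has an exact Poisson 95% interval of 13 to 32.1, which covers counting error only. In 309 high-enrichment loops (10.4%) the lower bound of that interval still gave a ratio of 8 or more with the expectation held fixed. Against the highest of the caller's 4 local expectations (bottom left, donut, horizontal and vertical) in place of the donut alone, 594 (19.9%) still reached 8.

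The cut at 8 had loops close on either side. The lowest ratio inside was 8.00027, from 15 contacts on an expectation of 1.87 in PMSG 1 at a 260 kb loop with an end of Col13a1 at its anchor. The highest outside was 7.998, from 24 contacts on 3.00 in PMSG 2. These loops differ by far less than the counting error. The longest high-enrichment loop spanned 1000 kb, and the next loop of ratio 8 or more beyond the limit spanned 1010 kb.

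Sequence at the anchors could be shown for promoters only. RefSeq promoters on GRCm38.p6 (250 bases before to 50 after an annotated start, 21045 promoters) were searched on both strands for the 12-letter core of the CTCF consensus motif. It was found in 16 of 426 promoters at the anchors of high-enrichment loops (3.76%), in 190 of 5670 at other loops only (3.35%), and in 292 of 14949 at no loop up to 1000 kb (1.95%). The share in all promoters was 2.37%. The sequences of 5 promoters follow in the 5′ to 3′ direction of the gene with the match in capitals. A match is a description of letters and not a bound site.
Rab32: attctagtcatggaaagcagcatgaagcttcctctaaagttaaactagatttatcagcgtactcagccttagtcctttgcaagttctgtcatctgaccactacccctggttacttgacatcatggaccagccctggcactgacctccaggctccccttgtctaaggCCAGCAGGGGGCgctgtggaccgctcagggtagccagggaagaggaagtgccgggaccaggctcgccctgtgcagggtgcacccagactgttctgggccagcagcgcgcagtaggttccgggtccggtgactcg
Ndufaf4: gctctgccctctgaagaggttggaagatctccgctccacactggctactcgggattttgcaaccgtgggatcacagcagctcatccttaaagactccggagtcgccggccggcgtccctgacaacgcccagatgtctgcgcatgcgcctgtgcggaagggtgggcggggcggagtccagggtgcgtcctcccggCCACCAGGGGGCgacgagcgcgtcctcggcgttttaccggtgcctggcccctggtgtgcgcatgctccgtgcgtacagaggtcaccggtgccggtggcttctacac
Scn2a: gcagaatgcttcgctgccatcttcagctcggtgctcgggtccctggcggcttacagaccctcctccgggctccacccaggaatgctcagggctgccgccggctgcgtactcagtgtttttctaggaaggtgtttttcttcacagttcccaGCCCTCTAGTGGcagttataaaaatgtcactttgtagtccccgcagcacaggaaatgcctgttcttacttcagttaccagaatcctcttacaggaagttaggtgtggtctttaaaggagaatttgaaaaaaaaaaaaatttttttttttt
Mterf1a: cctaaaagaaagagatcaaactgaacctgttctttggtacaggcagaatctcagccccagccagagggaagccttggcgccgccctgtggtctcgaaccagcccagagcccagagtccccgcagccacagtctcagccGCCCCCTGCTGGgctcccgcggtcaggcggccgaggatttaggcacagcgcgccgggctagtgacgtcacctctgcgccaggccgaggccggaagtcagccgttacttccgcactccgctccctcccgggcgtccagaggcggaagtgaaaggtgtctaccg
Mterf1b: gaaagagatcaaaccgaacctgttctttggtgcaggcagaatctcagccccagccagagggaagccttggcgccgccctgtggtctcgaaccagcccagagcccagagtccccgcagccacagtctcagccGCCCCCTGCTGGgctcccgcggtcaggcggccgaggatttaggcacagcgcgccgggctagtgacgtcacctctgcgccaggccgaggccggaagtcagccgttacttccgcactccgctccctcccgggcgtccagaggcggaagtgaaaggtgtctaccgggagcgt

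These 5 are among the 16 of 426 promoters with a match, so they are not typical of promoters at high-enrichment loops. They were chosen after their loops were seen. They show a loop that was high in every library, one near the cut, one found in the hCG group only, and a loop between near-identical promoters. The Rab32 promoter (chr10:10558158-10558457, minus strand, a gene for a small GTPase of melanosome and mitochondrial traffic) lies in the right anchor of a 150 kb loop. That loop had 20 contacts on 1.93 expected in hCG 1, 25 on 2.5 in hCG 2, 21 on 2.44 in PMSG 1 and 24 on 2.74 in PMSG 2, so all 4 ratios were above 8. The Ndufaf4 promoter (chr4:24897833-24898132, plus strand, a gene for an assembly factor of respiratory complex I) lies at a loop with ratios of 11.8 and 11.8 in the hCG libraries, against 7.84 and 15.5 in the PMSG libraries, where PMSG 1 fell just short of 8. The Scn2a promoter (chr2:65668436-65668735, plus strand) and the Mterf1a (chr5:3893884-3894183, minus strand) and Mterf1b (chr5:4192117-4192416, plus strand) promoters are taken up below.

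The number of high-enrichment loops was 926 in hCG 1 and 809 in hCG 2, against 490 in PMSG 1 and 758 in PMSG 2. The groups did not overlap, with a mean of 868 ± 82.7 in hCG libraries and 624 ± 190 in PMSG libraries (SD, n = 2 each), but the exact permutation test gave p = 0.33, the smallest that 2 against 2 libraries allow (two-sided, adjusted p = 0.556 over 10 comparisons). Relative to list length the groups did overlap. The rate per 1000 loops up to 1000 kb was 124 and 105 in the hCG libraries, against 61.1 and 121 in the PMSG libraries (exact permutation p = 0.667, n = 2 each). PMSG 1 had the lowest rate of the 4 and PMSG 2 lay between the hCG libraries, and without PMSG 1 the difference in rate, 23.5 per 1000 with all 4, was -6.29.

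Most high-enrichment loops were calls in the finest bins. In 5 kb bins there were 802 and 745 in the hCG libraries, against 439 and 676 in the PMSG libraries. In 10 kb bins there were 123 and 62, against 50 and 82, and in 25 kb bins 1 and 2, against 1 and 0. The 0 of 2134 loops in 25 kb bins of PMSG 2 has a Wilson 95% upper bound of 0.180%. As a share of the 5 kb calls they made up 37.3% and 28.6% in the hCG libraries, against 15.0% and 40.5% in the PMSG libraries, so the ratio of 8 was common in fine bins and rare in coarse ones.

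**Figure D1:**
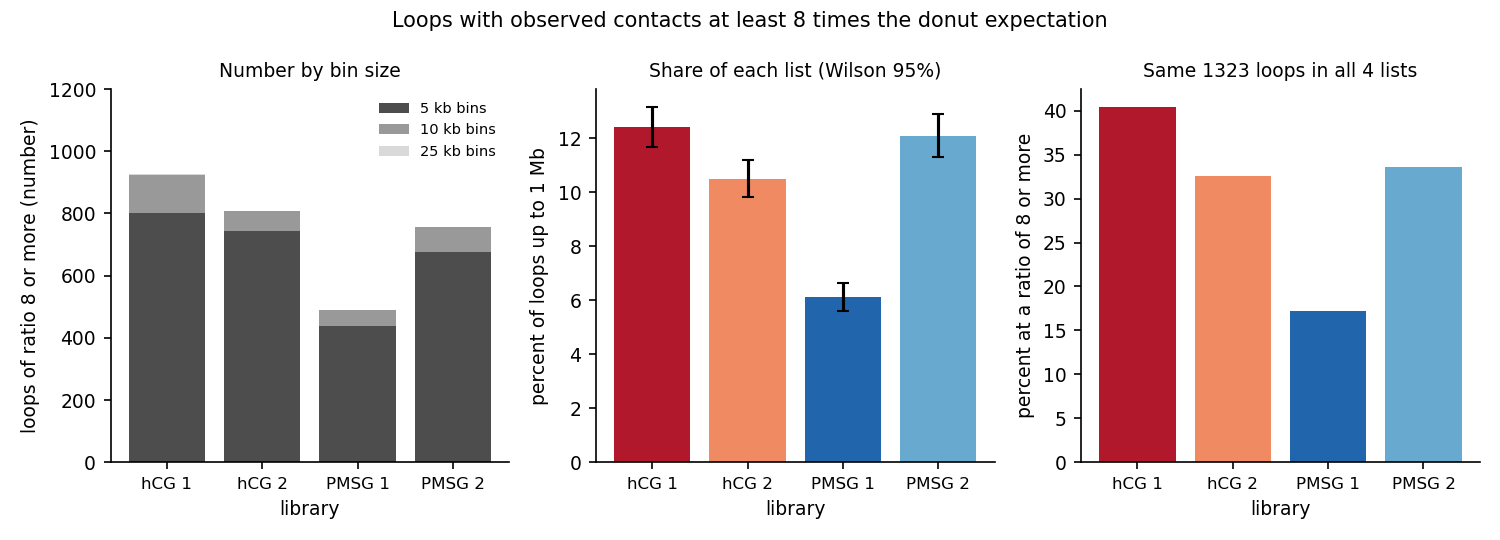
Left, the number of high-enrichment loops per library (x axis) stacked by bin size; middle, their share of all loops up to 1000 kb (percent, bars with Wilson 95% intervals); right, the percent at a ratio of 8 or more among the same 1323 loops called in all 4 lists. PMSG 1 is lowest in each panel, at 490 loops, 6.11% and 17.2%.

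PMSG 1 stood apart at loops that all 4 lists share. At the 1323 loops called once in the same bin size in every list, the median ratio was 7.31 in hCG 1 and 6.77 in hCG 2, against 5.78 in PMSG 1 and 6.95 in PMSG 2. The median donut expectation was 3.00 and 3.83 contacts in the hCG libraries, against 5.38 and 2.97 in the PMSG libraries. Of these loops 40.4% and 32.6% reached 8 in the hCG libraries, against 17.2% and 33.6% in the PMSG libraries. PMSG 1 thus had the highest expectation and the fewest loops past the cut at the same places, while PMSG 2 lay within or next to the hCG values. The part of sequencing depth in this was not tested, since the lists give no library totals.

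High-enrichment loops recurred from library to library. Calls were taken as the same loop when both midpoints lay within 20 kb. The mean share found in another list was 95.1% and 94.5% for those of hCG 1 and hCG 2, and 92.9% and 95.6% for those of PMSG 1 and PMSG 2, while for other loops it was 61.6% and 61.8%, and 62.2% and 69.7%. The difference was 30.7 ± 3.41 percentage points (SD over 4 libraries), with the high-enrichment loops higher in 4 of 4, and the exact sign-flip permutation test gave p = 0.13, the smallest that 4 libraries allow (adjusted p = 0.136 over 12 comparisons). In 5 kb bins alone the difference was 12 ± 4.21 percentage points. Other loops in 5 kb bins were thus also found again more often than coarser ones, and bin size moves with this result.

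The ratio itself recurred less than the loop. A high-enrichment loop also had a ratio of 8 or more in another list in 40.2% and 44.7% of cases for hCG 1 and hCG 2, and in 53.9% and 45.8% for PMSG 1 and PMSG 2 (mean of the 3 other lists). High-enrichment loops of hCG 1 in 5 kb bins had a median ratio of 8.50 when read in hCG 2, against 6.05 for other loops of hCG 1 read there. The same loops of hCG 1 read in PMSG 1 had a median of 7.10, against 5.05 for other loops. High-enrichment loops chosen in PMSG 1 and read in hCG 1 had a median of 9.91, against 7.14 for other loops, and read in hCG 2 and PMSG 2 they had 9.32 and 9.63. These medians cover only loops with a matching 5 kb call in the list where they were read. For high-enrichment loops of hCG 1 these were 661 of 802 in hCG 2 and 648 in PMSG 1. PMSG 1 had the fewest high-enrichment loops, 439 in 5 kb bins. Of these, 255 were read in hCG 1, 303 in hCG 2 and 284 in PMSG 2. In those parts the medians were above 8 in each of the other 3 libraries.

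**Figure D2:**
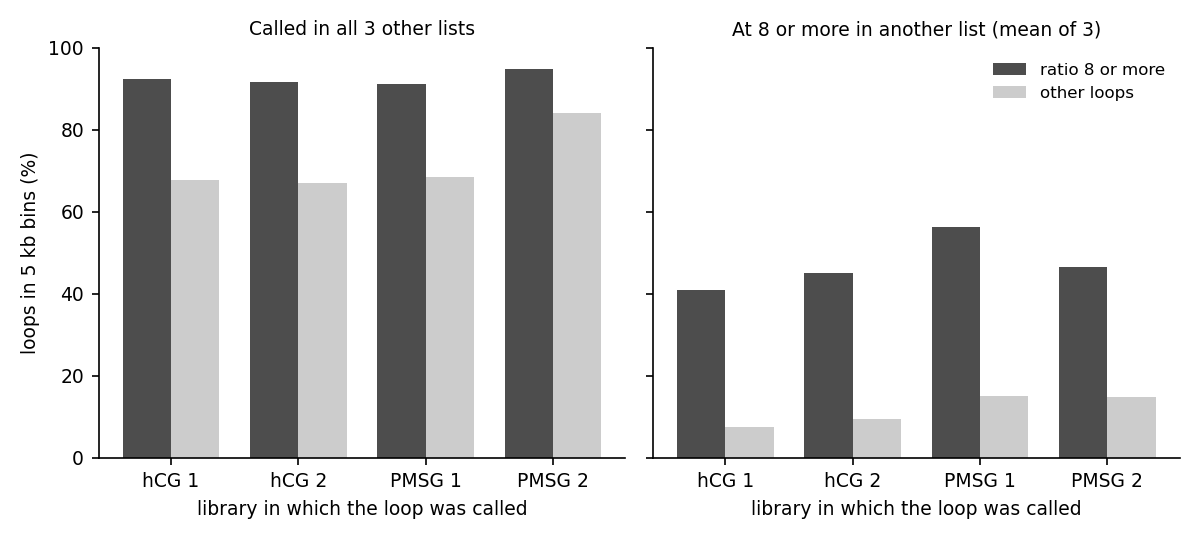
Percent of loops in 5 kb bins (y axis) by the library that called them (x axis): left, those called in all 3 other lists; right, those at a ratio of 8 or more in another list (mean of 3). In each library the dark bars (ratio of 8 or more) stand above the light bars (other loops).

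Matching joined the 2983 calls into 1663 distinct loops. Of these, 1413 (85.0%) were called in all 4 lists at any ratio, against 2350 of 10786 distinct other loops (21.8%). A loop called in more lists had more chances to reach 8 in 1 of them, so these shares are a description. A ratio of 8 or more was reached in 1 library by 892, in 2 by 373, in 3 by 248 and in all 4 by 150. Only 45 (2.71%) were called in a single list, against 4875 (45.2%) of the distinct other loops.

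The most enriched loop over the 4 libraries joined chr17:30445001-30450000 with chr17:30920001-30925000, 475 kb apart. It had 36 contacts on 1.16 expected in hCG 1 and 58 on 1.52 in hCG 2, against 43 on 2.07 in PMSG 1 and 38 on 1.34 in PMSG 2. The ratios were 30.9 and 38.1 in the hCG libraries, against 20.7 and 28.4 in the PMSG libraries. With the donut expectation held fixed, the Poisson 95% interval of the lowest was 15.0 to 27.9. The loop was picked by these same ratios, so the interval is a description. Against the highest of the 4 expectations the ratios were lower, at 12.4 and 15.6 in the hCG libraries, against 8.42 and 11.9 in the PMSG libraries. Between the anchors lie Glo1, the gene for glyoxalase I, which detoxifies methylglyoxal, and Dnah8, a gene for an axonemal dynein heavy chain, and the anchors fall within Btbd9 and Glp1r. A duplication that carries Glo1 is known in several laboratory mouse strains. The strain is not given here, and whether these mice carry it was not tested.

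The loops next in order of their smallest ratio over 4 libraries were called at 8 or more in each of them. A 645 kb loop on chromosome 15 with no protein-coding gene at or between its anchors had ratios of 41.4 and 17.5 in the hCG libraries, against 16.1 and 23.4 in the PMSG libraries. There hCG 2 and PMSG 1 had calls in 10 kb bins, and hCG 1 and PMSG 2 in 5 kb bins. A 110 kb loop on the X chromosome, also without a gene, was called in 10 kb bins in every library, at 16.6 and 18.2 in hCG libraries, against 14.8 and 15.5 in PMSG libraries. A 955 kb loop on chromosome 14 enclosed Klhl1, a gene of the kelch family, at 26.0 and 16.6, against 12.8 and 14.0. Each of these 3 had its lowest ratio in PMSG 1, but on chromosome 15 that ratio can be set only against the one of hCG 2.

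Rhob was the gene with an end at an anchor among these leading loops. It encodes a small GTPase of endosome traffic and the cytoskeleton, and its promoter lies at chr12:8500001-8505000, joined to chr12:8325001-8330000. This 175 kb loop had 46 contacts on 2.74 expected and 49 on 3.65 in hCG 1 and hCG 2, against 62 on 5.07 and 33 on 2.15 in PMSG 1 and PMSG 2. The ratios, 16.8 and 13.4 against 12.2 and 15.4, overlap between the groups. An 80 kb loop on chromosome 15 enclosed Krt8 and Krt18, the paired keratins of simple epithelia, with ratios of 15.4 and 19.2 in hCG libraries, against 11.3 and 13.6 in PMSG libraries. A 360 kb loop on chromosome 3 framed the Sprr cluster of small proline-rich proteins of the skin barrier, at 14.9 and 11.1, against 13.2 and 13.4. Others enclosed Nampt, which makes a precursor of NAD, and Kcns3, a potassium channel subunit.

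**Figure D3:**
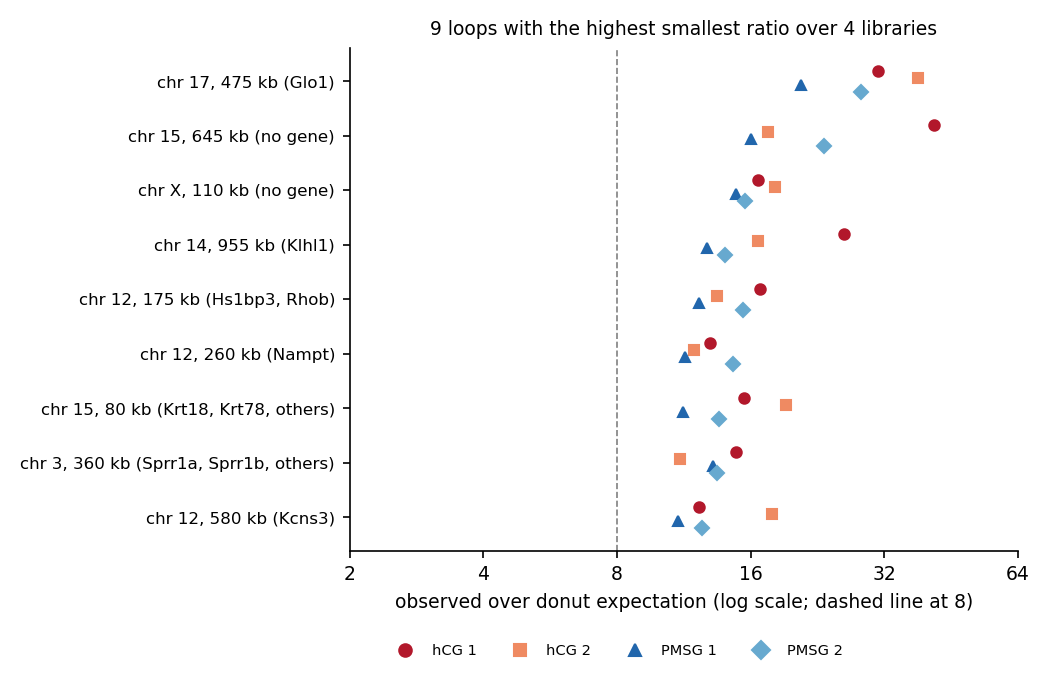
Ratio of observed contacts to donut expectation (log x axis) in each library for 9 of the loops with the highest smallest ratio (rows, with chromosome, span and genes between or across the anchors). All points lie right of the dashed line at 8, and the chromosome 17 loop around Glo1 leads with 20.7 as its lowest.

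In all, 93 genes, Rhob among them, had an end at a loop that was high in all 4 libraries. A 170 kb loop joined Mtnr1a, the gene of a melatonin receptor, with F11, the gene of clotting factor XI, at ratios of 16.3 and 14.3 in hCG libraries, against 10.3 and 16.6 in PMSG libraries. A 975 kb loop, near the length limit, held the promoter of Irs1, an adaptor of insulin and IGF signalling, with 18 contacts on 1.16 and 21 on 1.52 in hCG libraries, against 21 on 2.04 and 17 on 1.26 in PMSG libraries. A 205 kb loop ended at Sgcb, for a sarcoglycan of the muscle membrane, and a 270 kb loop joined Snx10, for a sorting nexin, with Skap2, for an adaptor of immune cell signalling. Their ratios ran from 10.5 to 13.3 and from 9.95 to 12.6. The groups' ratios overlapped at the Mtnr1a and Snx10 loops and not at the Irs1 and Sgcb loops. The nearest values, in hCG 2 and PMSG 2, were 13.8 and 13.5 at Irs1 and 11.9 and 11.1 at Sgcb. How many of all shared loops show no overlap was not counted, so its absence has no background here. The difference in strength passed the test given below at none of the 4, Mtnr1a, Snx10, Irs1 and Sgcb (edgeR adjusted p = 0.907, 0.994, 0.895 and 0.907).

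A smaller share of high-enrichment than of other loops had a gene end within 2.5 kb of an anchor in each library. It was 39.7% and 41.0% in the hCG libraries and 37.8% and 39.3% in the PMSG libraries, while for other loops it was 62.4% and 60.4%, and 59.0% and 58.3%. The difference was -20.6 ± 1.73 percentage points (SD over 4 libraries), lower in 4 of 4 (exact sign-flip permutation p = 0.13, adjusted p = 0.136 over 12 comparisons). An annotated gene start lay at an anchor of 19.2% of high-enrichment loops and 37.2% of other loops (means of 4 libraries), and starts lay at both anchors of 1.2% and 6.60%. Between hCG and PMSG libraries the share with a gene end differed by 1.86 percentage points, without overlap, at the smallest p the design allows (exact permutation p = 0.33, n = 2 each). It was 1.08 without PMSG 1, 1.21 without hCG 2 and 0.67 with the highest of the 4 expectations.

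Bin size and span moved with this difference. The median span of high-enrichment loops was 210 and 215 kb in the hCG libraries and 300 and 225 kb in the PMSG libraries, while other loops had medians of 140 and 150 kb, and 165 and 175 kb. In 5 kb bins alone the difference in gene ends was -13.2 ± 3.54 percentage points. Within 5 kb bins and spans up to 100 kb, 56.8% of high-enrichment and 61.4% of other loops had a gene end over all libraries. The shares were 44.1% and 47.3% from 100 to 200 kb, 34.1% and 40.6% from 200 to 500 kb, and 26.8% and 29.8% from 500 to 1000 kb. At like bin size and span the difference was -2.84, -3.77, -6.08 and -0.78 percentage points on the mean of the libraries, and single libraries went either way. For gene starts the same classes gave 30.3% of high-enrichment and 38.4% of other loops up to 100 kb. From 100 to 200 kb they gave 19.4% and 24.3%, and from 200 to 500 kb 15.9% and 20.7%. From 500 to 1000 kb the order turned around, at 19.0% and 12.4%. In the shortest and longest classes single libraries went either way.

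**Figure D4:**
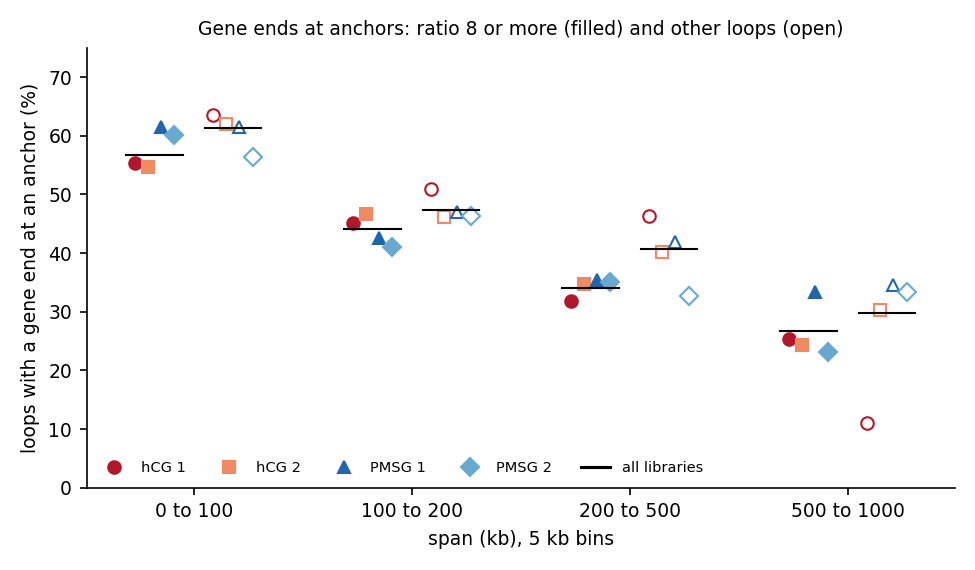
Percent of loops in 5 kb bins with a gene end within 2.5 kb of an anchor (y axis), by span (x axis), for high-enrichment loops (filled) and other loops (open); points are libraries and lines are all libraries together. The share falls with span in both, from 56.8% to 26.8% for the filled set, and the sets overlap in each span class.

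Per Mb of span, high-enrichment loops also overlapped fewer genes, 7.22 against 10.4 for other loops, on the mean of the libraries. The median number of genes overlapped was 2 in both sets over all lists. No gene was overlapped by 3.02% of high-enrichment loops and 6.05% of other loops. Neither anchor lay in a gene for 35.9% of high-enrichment loops and for 24.5% of other loops. High-enrichment loops were longer, and these values were not matched for bin size or span. Across chromosomes the share of loops that were high ran from 7.85% on chromosome 16 to 12.1% on chromosome 8. On the X chromosome it was 11.8%, and 42.1% of its 5 kb calls were high. About as many shared an anchor (within 10 kb) with another loop of the same list, 66.6% and 66.2% of other loops (exact sign-flip permutation p = 0.625, n = 4).

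Genes at high-enrichment loops included regulators and targets of the ovulatory response. Of 9033 genes with an end at any loop up to 1000 kb, 883 (9.78%) had one at a high-enrichment loop, and the counts below are read against that share. Of 19 looped granulosa transcription factors, 3 were at a high-enrichment loop, of 18 genes of the LH surge and ovulation 5, and of 17 follicular granulosa genes 3. The shares are 15.8%, 27.8% and 17.6%, each on few genes and with no test.

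Among the LH surge genes, Adamts1 had 2 such loops. It encodes a protease of the matrix around the oocyte that is needed for normal ovulation. Its promoter was joined to a site 610 kb away with ratios of 9.54 and 8.62 in hCG libraries, against 12.3 and 6.72 in PMSG libraries, and to one 835 kb away at 7.27 and 11.9, against 17.8 and 9.66. The 6.72 of PMSG 2 came from a 10 kb bin, where ratios run lower, and the others from 5 kb bins. PMSG 1 had the highest ratio at both, unlike most loops above. The Vegfa promoter, of the main growth factor for blood vessels, was joined over 295 kb to the start of 1600014C23Rik with 21 contacts on 1.91 and 27 on 2.35 in hCG libraries, against 30 on 4.19 and 13 on 1.41 in PMSG libraries. Its ratios of 11.0 and 11.5 in hCG libraries, against 7.16 and 9.22 in PMSG libraries, do not overlap, which again has no counted background. For this loop edgeR's quasi-likelihood test gave a log2 difference of 0.55 ± 0.28 (SE) with an adjusted p = 0.761.

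The other 3 LH surge genes passed 8 in 1 or 2 libraries. Fosb, an immediate early transcription factor, was joined to Ercc1 over 40 kb at 5.29 and 8.41 in hCG libraries, against 5.38 and 8.30 in PMSG libraries. Rgs2, a brake on G protein signalling, was at 4.40 and 6.11, against 6.58 and 8.87. Cyp11a1, which makes the first step from cholesterol to steroid hormones, was at 4.87 and 7.49, against 8.44 and 5.51. Rgs2 and Cyp11a1 were thus high in a PMSG library and not in an hCG one, and the hCG 1 value of each came from a 10 kb bin, where ratios run lower.

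Of the transcription factors, Cebpb was high in every library. It is a mediator of the LH response in granulosa cells, and its 215 kb loop had 32 contacts on 3.42 and 42 on 4.79 in hCG libraries, against 62 on 6.68 and 18 on 2.21 in PMSG libraries. The ratios of 9.35 and 8.77, against 9.28 and 8.15, are close together although the counts differ. Sox4, a factor of the SOX family, had loops of 645 and 875 kb at 11.3 and 10.2 in hCG 1, in 5 kb bins, and below 8 elsewhere, where all calls but that of PMSG 1 at 645 kb (7.60) were in bins of 10 or 25 kb, so most of these ratios cannot be set against each other. Gata4, a factor of gonadal cells, lay with Neil2 at a 175 kb loop to Blk that was called at 9.70 and 7.42 in hCG libraries and in neither PMSG library.

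Among follicular genes Gja1 stood out. It encodes connexin 43, the gap junction protein between granulosa cells, and its promoter was joined over 805 kb with 13 contacts on 1.2 and 14 on 1.34 in hCG libraries, against 17 on 1.91 and 16 on 1.36 in PMSG libraries, all above 8. A second Gja1 loop of 630 kb had ratios of 10.9 and 9.91 in the hCG libraries, both in 5 kb bins, against 4.72 and 4.48 in the PMSG libraries, both in 10 kb bins. These ratios cannot be set against each other, since bin and group go together there. Ccnd2, for cyclin D2, was high over 300 kb in hCG 1 alone and over 165 kb in hCG 2 alone, where hCG 1 and PMSG 2 had calls in 25 kb bins only, and Igf1r, the receptor of insulin-like growth factor 1, in PMSG 2 alone at 8.09.

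**Figure D5:**
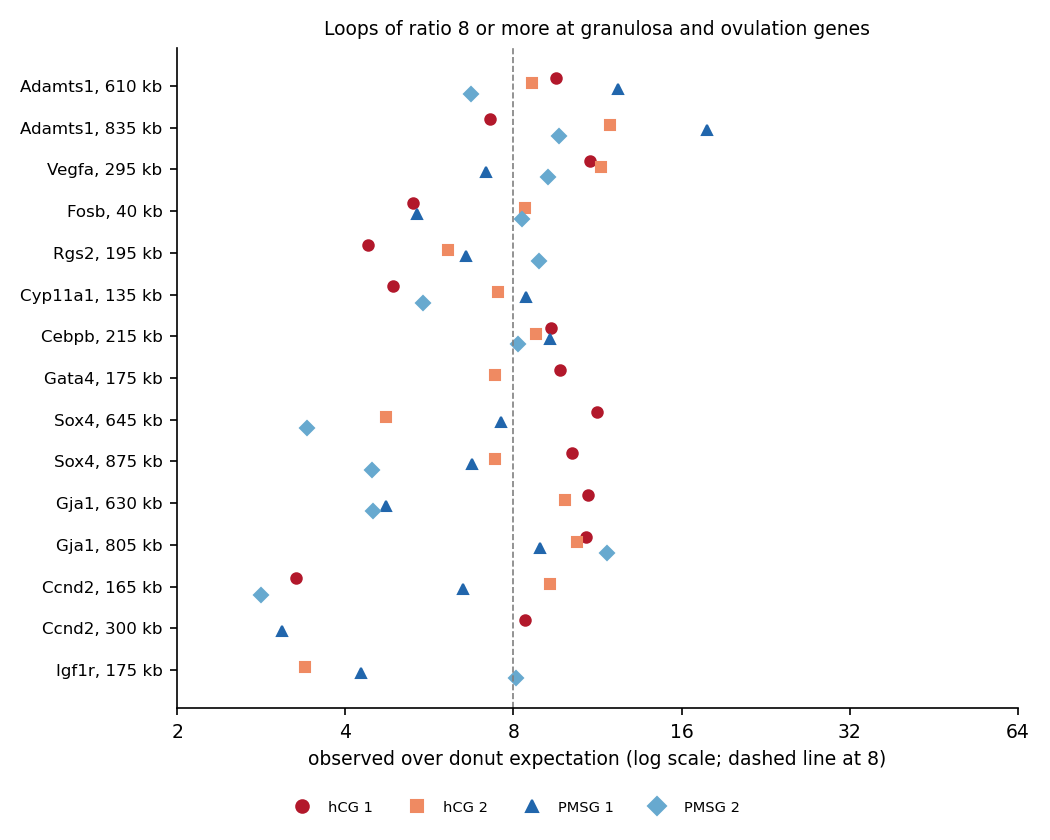
Ratio of observed contacts to donut expectation (log x axis) in each library for high-enrichment loops at genes of the LH surge, transcription factor and follicular lists (rows, with span). Cebpb and the 805 kb loop of Gja1 lie right of the dashed line at 8 in all 4 libraries, while at the other loops shown at least 1 library is below 8 or has no call.

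Igfbp5, which encodes a binding protein of insulin-like growth factors, had more distinct high-enrichment loops than any other gene, 4 of its 9 loops. The 140 kb one was high in all 4 libraries, at 11.1 and 11.8 in hCG libraries, against 8.61 and 9.47 in PMSG libraries. The one of 960 kb had 10 and 7.60, against 8.50 and 8.15, where PMSG 2 alone had a call in 10 kb bins and not in 5 kb bins. Cdh23, for a cadherin of the inner ear, Fmod, for a collagen-binding proteoglycan, and Mthfsd followed with 3 each.

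Regulators of the development of other tissues were there too. Of 32 looped developmental regulators on a list, 5 had a high-enrichment loop (15.6%): Hoxd9, Sox2, Nkx2-2, Foxc1 and Evx2. Nkx2-2, of the pancreas and spinal cord, had 7.92 and 12.4 in hCG libraries, against 10.6 and 11.3 in PMSG libraries, over 220 kb. Foxc1, of the eye and mesenchyme, had 12.6 and 9.47, against 6.53 and 6.58, over 410 kb (edgeR log2 difference 0.73 ± 0.30 SE, adjusted p = 0.712). Markers of other ovarian cell types were counted as genes only. None of 9 looped granulosa markers, 3 of 6 theca and stroma markers (Cyp17a1, Col1a1 and Pdgfra), both looped endothelial markers (Cdh5 and Cd34), and none of 2 leukocyte and 3 oocyte markers had one. A loop can be called whether or not its gene is active, and the share of other cells in the samples was not tested.

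Loops with a gene start at both anchors were rare, 40 calls or 29 distinct loops. Nhp2, for a protein of the telomerase complex, and 0610009B22Rik were 65 kb apart at 8.75 and 10 in hCG libraries, against 7.06 and 9.27 in PMSG libraries. Tmem107, for a ciliary protein, and Hes7, for the clock factor of somite formation, were at 5.98 and 8.43, against 8.24 and 9.55. Gbp5 and Gbp3, for interferon-induced GTPases, were at 9.36 and 9.31, against 6.09 and 7.76. These 3 pairs were high in 3, 3 and 2 libraries.

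Of 28 such pairs of different genes, 1 had promoters that align over at least 150 bases at 80% identity or more. The promoters of Mterf1a and Mterf1b, paralogous genes for a mitochondrial transcription termination factor, printed above, share 291 of 293 aligned bases. Their loop over 300 kb was called in PMSG 2 with 13 contacts on 1.30 expected (10 kb bins, ratio 10), in hCG 1 at 3.37 (25 kb bins), and in neither hCG 2 nor PMSG 1. Reads from such copies can be placed at either, so this loop is uncertain. A list of gene families that can hold close copies was made by symbol prefix alone, such as Olfr, Zfp, Ugt and Gm. Of its looped members, 33 of 347 were at a high-enrichment loop (9.51%, against 9.78% of all genes). How alike their sequences are was not measured, and misplaced reads at them were not tested.

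Loops found in 1 group only were few. Of the 1663 distinct loops, 28 (1.68%) were called in hCG 1 and hCG 2 and in no PMSG library, where 5.07% of all distinct loops up to 1000 kb were. The reverse held for 23 (1.38%), where 3.72% of all distinct loops did. A missing call means that a point did not pass the caller there, not that it had no contacts. Pairs across the groups had fewer. There were 8 loops in hCG 1 and PMSG 1 alone (2.56% of all distinct loops had this pattern), 3 in hCG 2 and PMSG 2 alone (1.38%), 5 in hCG 1 and PMSG 2 alone (1.04%) and 10 in hCG 2 and PMSG 1 alone (3.25%).

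Both hCG libraries were high at 4 of the 28. A 495 kb loop joined chr16:92695001-92700000, where an annotated start of Runx1 lies, with chr16:93190001-93195000. Runx1 is a transcription factor that the LH surge is known to induce in granulosa cells. The loop had 15 contacts on 1.23 expected in hCG 1 and 16 on 1.46 in hCG 2, ratios of 12.2 and 10.9, and no call in a PMSG library. The nearest PMSG call lay 95 kb away, in 25 kb bins of PMSG 2. The other 3 had no gene end or start at an anchor. Of these, 1 is among the low expectation loops below and has an anchor within Myo9b.

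Of the 28, 11 had a gene end or start, and of the 23 PMSG-only loops 4 did. Of all distinct high-enrichment loops 41.9% had a gene end and 21.3% a gene start. The share with either was not counted, so the 11 and the 4 have no like background here. At the Runx1 and Scn2a loops only a start lay at an anchor. Mcm3, for a subunit of the replicative helicase, lay at a 190 kb loop at 15.3 in hCG 1 and 6.12 in hCG 2, in bins of 5 and 10 kb. Scn2a, a sodium channel gene whose promoter is printed above, lay at a 270 kb loop at 4.79 and 9.65. Prlh, for a prolactin-releasing peptide, and Rab17 were at 5.21 and 9.66, and Foxf1, a mesenchymal factor, and Mthfsd at 2.28 and 10.4. In these 4 the hCG libraries differed in bin size, and the lower ratio came from the coarser bin.

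Both PMSG libraries were high at 3 of the 23. Gdap1, for a mitochondrial fission factor, lay at a 940 kb loop with 14 contacts on 1.30 and 16 on 1.75 in PMSG 1 and PMSG 2, and Npy1r with Npy5r, receptors of neuropeptide Y, at a 710 kb loop with ratios of 8.19 and 8.17. The third had no gene end or start at an anchor. Osr1, for a factor of the kidney and gonad mesoderm, was at 5.76 and 10.5, and Eif3f, for a translation factor, with Nlrp10 at 11.9 and 5.39. At both, the lower ratio came from a 10 kb bin and the higher from a 5 kb bin. The median span was 182.5 kb for the hCG-only loops and 385 kb for the PMSG-only ones, and a call of the other group lay within 50 kb of 6 and 2 of them.

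Strength in hCG against PMSG libraries was tested with edgeR at the 1323 shared loops, using the donut expectation as offset. No loop passed an adjusted p of 0.05 (0%), and so none of the 702 that were high in a library did. At an unadjusted 0.05, 88 of the 1323 passed by edgeR, 66 of them among the 702. By DESeq2, which also called none after adjustment, 6 of the 1323 did. With each library's median ratio centred, a step chosen after seeing the data, 62 passed by edgeR, 33 of them among the 702. The median log2 difference was 0.22 at high-enrichment loops and 0.11 at the rest. The 702 were chosen by the same ratios, so these counts and medians are a description. The medians were 0.05 and -0.04 without PMSG 1, the library with the highest expectation. The Glo1 loop had a log2 difference of 0.55 ± 0.22 (SE, adjusted p = 0.631 by edgeR) and the longer Gja1 loop 0.07 ± 0.30 (adjusted p = 0.990 by edgeR).

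A donut expectation under 0.5 was found in 6 calls, or 4 distinct loops, and in none was a gene end of the table at an anchor. These calls were 2 of 926 and 3 of 809 high-enrichment loops in hCG libraries, against 0 of 490 and 1 of 758 in PMSG libraries. The chromosome 15 loop named above (chr15:29110001-29115000 with chr15:29755001-29760000) had 16 contacts on 0.386 in hCG 1 and 12 on 0.512 in PMSG 2, and in 10 kb bins 30 on 1.71 in hCG 2 and 22 on 1.37 in PMSG 1. A 130 kb loop on chromosome 18 (chr18:85780001-85785000 with chr18:85910001-85915000) had 16 contacts on 0.344 in hCG 2. The other libraries called it in 10 kb bins at 6.01 in hCG 1, against 12.1 in PMSG 1 and 5.80 in PMSG 2.

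The other 2 lay one inside the other on chromosome 8. The outer joined chr8:71130001-71135000 with chr8:71855001-71860000, 725 kb apart, and had 14 contacts on 0.458 in hCG 1 and 15 on 0.268 in hCG 2, against no call in PMSG 1 and 13 on 0.485 in PMSG 2 (10 kb bins). Its ratio in hCG 2, 56.0, was the highest of all 2983. The inner joined chr8:71285001-71290000 with chr8:71745001-71750000, 460 kb apart, at 11.9 in hCG 1 (10 kb bins) and 46.4 in hCG 2, against no call in a PMSG library, and is 1 of the 28 hCG-only loops. Their centres lie 22.5 kb apart, so the 2 loops are nested about nearly the same point. The outer anchors fall within Gm7827 and Gm5373, and an annotated start of each lies at an anchor in at least 1 library, while the genes between them include Insl3, a hormone gene of gonadal cells, and Jak3, for a kinase of cytokine signalling.

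A lone point on an almost empty surrounding can also arise where the mice and the reference differ in the order or copy number of a segment. The lists hold no reads, and whether that is so at these 4 loops or at the Glo1 loop was not tested. Over all high-enrichment loops 49 calls, or 39 distinct loops, had an expectation under 1. These were 22 of 926 and 12 of 809 in hCG libraries, against 4 of 490 and 11 of 758 in PMSG libraries. The smallest count among other loops was 10 contacts and among high-enrichment loops 11. Any call with an expectation under 1 therefore has a ratio above 8, and its place in this set was fixed by the cut.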

How the data were processed

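The deposited lists hold, per the file headers, loops called by juicer_tools 1.22.01 in bins of 5, 10 and 25 kb and then merged. BWA, Juicer and the build mm10 are named in the submitters' processing notes, and further settings were not given in the sources used here. Technical replicates (Dovetail Micro-C kit, per the labels' protocols) are merged. The observed contact count is a whole number per the file headers and not normalized. The authors deposited the expected contact signal from 4 neighbourhoods. The q-value of each comparison was deposited as an FDR under 0.1. A score in the deposited lists, counting the pixels merged into a loop, was not used.

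Libraries were grouped by title. Connected sets of calls within 20 kb at both midpoints formed 1 distinct loop, and a library's value is its call nearest to the set's finest one. Genes are 21631 RefSeq protein-coding genes on GRCm38.p6 (gene ends), with starts from the RefSeq promoters, so no exon or intron is given. Tests over libraries were exact permutations, two-sided, with Benjamini-Hochberg adjustment. Strength used edgeR 4.0.16, with DESeq2 1.42.0 as an alternative, on counts, checked on simulated data, and other steps Python 3.11.15. Deviations of same-numbered libraries, centred on their medians, were not correlated over the shared loops (correlation -0.014). Centring removes a shift of a whole library, so this cannot tell whether same-numbered libraries were handled together. Members, lists and tests were chosen with earlier results of these data known. Named genes are those at the 10 most enriched loops, the 5 highest ratios per library, low expectation loops, list genes, up to 10 group-only loops each way and the loops next to the cut. Added after seeing the data were loops with a gene end, with promoters at both anchors, Igfbp5 and the printed promoters. A locus among the leading loops is not reported here.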

Additional observations from a re-analysis of the deposited data

How the results depend on the processing

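No p-value over libraries could pass 0.05 (smallest 0.33 and 0.13), so only directions and counts are compared. The hCG minus PMSG rate, 23.5 per 1000, ranged from -6.29 to 53.3 when 1 library was left out, and reversed only without PMSG 1. The hCG minus PMSG differences in number, span and gene ends, and those between high-enrichment and other loops in gene ends, span and the share found in another list, kept their direction at ratios of 6 or 10, with the highest of the 4 expectations, all FDR values at or under 0.01, 5 kb bins, expectations of 0.5 or more and each library left out. Gene distances and span classes were varied for gene ends, and match distances for the share found again. Differences in genes per Mb and anchors outside genes were not recomputed, and those in promoters only within 5 kb bins and span classes. Sizes moved more: without 1 library the difference in number, 243.5, ran from 109.5 to 377.5, in span, -50 kb, from -87.5 to -12.5, and in gene ends, 1.86, from 1.08 to 2.63. The counts of group-only loops depended on the cut. The 28 hCG-only loops became 72 at a ratio of 6, 7 at 10, 4 with the highest expectation and 47 in 5 kb bins, and were 27 to 72 without 1 library. The 23 PMSG-only loops became 68, 11, 10 and 57, and were 21 to 49 without 1 library. With 1 library fewer, fewer calls or absences are needed for such a loop. The edgeR count of 0 became 3 loops (2 high) with the highest expectation as offset, and 0 to 8 (0 to 4 high) without 1 library, where the lone library is assumed to vary like the others. It stayed 0 with DESeq2, identical coordinates, counts of 20 or more, the replicate block and, chosen after seeing the data, median ratios centred. Counts near 20 contacts limit every single ratio.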
